A study of Mus musculus with 16 samples.

Results

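Coagulation and complement factors are plasma proteins that the liver makes and secretes. The set described here is a fixed list of 38 genes, 21 for blood coagulation with its inhibitors and clot breakdown and 17 for complement, out of 24539 genes in the deposited tables, and all 38 were measured and passed the filter on low counts. Livers of male C57BL/6 mice were compared between 2 diets. HB mice received a high-fat diet together with betaine, a methyl donor, and HF mice received the high-fat diet without it. Both diets started at 8 weeks of age and ran for 8 weeks, so livers came from animals 16 weeks old. For each diet there were 2 libraries of total mRNA, 2 of ribosome-bound mRNA (mRNA pelleted with ribosomes and their nascent chains) and 2 of fragments that an N6-methyladenosine (m6A) antibody pulled down. No group on a standard diet was analysed here, so every comparison is between livers of mice on high-fat feed. Per the labels, mRNA and ribosome-bound samples pooled material from 2 independent experiments, so that p-values measure the spread between pools and not between mice.

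Clotting proceeds through a chain of protease precursors that activate one another until thrombin, the product of F2, cuts fibrinogen into fibrin. Inhibitors such as antithrombin and the protein C system hold the chain in check, and plasmin dissolves the clot. Complement is a second protease cascade in plasma, which is started by antibodies, by lectins that bind microbial sugars, or by slow spontaneous activation, passes through cleavage of C3 and ends in the membrane attack complex. Hepatocytes are the main source of most of these proteins, and several of their genes, fibrinogen among them, are known acute-phase genes.

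Total mRNA libraries held 18011999 to 22492813 reads in HB and 11437462 to 11570775 in HF. Ribosome-bound libraries held 6508500 to 8659310 reads in HB and 5778439 to 6431510 in HF. Both HB ribosome-bound libraries were nearly alike, with a chi-square between their counts of 1.40 for each degree of freedom, where the other pairs had 34.7 to 98.5. They were therefore summed and counted as 1 sample, so the HB ribosome-bound group has no replicate of its own. Hepatocyte markers, 9 of the 10 on their list being in the tables, summed to 51836 and 52992 RPKM in HB mRNA and 45812 and 47357 RPKM in HF mRNA, and the label of liver held in every library. Neutrophil markers summed to 3.52 and 4.32 RPKM in HB mRNA and 8.34 and 53.8 RPKM in HF mRNA, and 1 of the 5 markers, Ly6g, was at 0 in all 4 libraries. Platelet and megakaryocyte markers summed to 2.22 and 4.80 RPKM in HB mRNA and 7.23 and 15.6 RPKM in HF mRNA, with 0 of 5 at 0, and cholangiocyte markers to 15.7 and 26.0 RPKM in HB mRNA and 26.2 and 31.9 RPKM in HF mRNA, with 0 of 5 at 0. Kupffer cell markers summed to 121 and 140 RPKM in HB mRNA and 112 and 126 RPKM in HF mRNA. Sums of hepatocyte, neutrophil, platelet and cholangiocyte markers thus did not overlap between the diets, the HB mRNA libraries were the deeper ones, and the part of these in the results was not tested. In bulk liver, fewer cells of a type and less RNA per cell cannot be told apart.

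Fibrinogen is built from 3 chains, and the genes Fgg, Fga and Fgb lie side by side on chromosome 3. Their mRNAs were all higher in both HB libraries than in either HF library, as given further on, and the 250 bases before each start are shown because these neighbours shared that order, although Fgb missed the threshold. C9, a pore-forming subunit of the membrane attack complex, is shown beside them because its mRNA had the largest change of the 38. The sequences are RefSeq's, from build GRCm38.p6, read 5′ to 3′ on the gene's own strand, and end at the base before the start. The start is the one RefSeq gives, and no transcription start was measured here. Capitals mark matches, on either strand, to TTGCNNAA (a C/EBP core) or CTGGGA (the core of the interleukin-6 response element).
Fgg, chr3:83007474-83007723, plus strand: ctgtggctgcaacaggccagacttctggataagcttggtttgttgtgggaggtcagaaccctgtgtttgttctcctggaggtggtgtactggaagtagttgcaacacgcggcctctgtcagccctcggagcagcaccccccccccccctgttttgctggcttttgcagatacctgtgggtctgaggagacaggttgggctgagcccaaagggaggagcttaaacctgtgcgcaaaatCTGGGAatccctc
Fga, chr3:83025903-83026152, plus strand: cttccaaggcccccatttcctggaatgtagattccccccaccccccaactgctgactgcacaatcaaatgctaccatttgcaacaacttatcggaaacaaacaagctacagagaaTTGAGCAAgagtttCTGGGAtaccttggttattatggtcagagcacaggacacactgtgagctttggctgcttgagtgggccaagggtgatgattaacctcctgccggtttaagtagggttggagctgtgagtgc
Fgb, chr3:83049864-83050113, minus strand: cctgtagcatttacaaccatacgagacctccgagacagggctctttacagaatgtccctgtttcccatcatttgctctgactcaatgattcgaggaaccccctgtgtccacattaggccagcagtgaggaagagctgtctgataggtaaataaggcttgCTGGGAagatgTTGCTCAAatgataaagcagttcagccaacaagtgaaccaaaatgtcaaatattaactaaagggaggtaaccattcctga
C9, chr15:6445096-6445345, plus strand: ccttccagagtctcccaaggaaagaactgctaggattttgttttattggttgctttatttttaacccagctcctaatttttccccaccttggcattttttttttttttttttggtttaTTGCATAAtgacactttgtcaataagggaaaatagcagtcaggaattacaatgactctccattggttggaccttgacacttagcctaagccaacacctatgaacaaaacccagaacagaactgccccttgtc
Fga held 1 match to each of these 2 motifs, and so did Fgb. Fgg held only CTGGGA, and C9 only the C/EBP core. No matches overlapped in these windows. Of 29 members in the promoter table, 7 (24.1%) held TTGCNNAA in their 250 bases, against 9.55% of 27025 promoters of the same length. CTGGGA was found in 12 of 29 members (41.4%) and 26.8% of all promoters, and the TATA box letters TATAAA in 2 of 29 (6.90%) and 12.97%. Among the 29, TTGCNNAA stood before 2 of the 9 genes whose mRNA rose with betaine and 5 of the 20 others. C2, C4b, Cfb, Cfi, Kng1, Masp1, Plg, Proc and Serping1 are the other members. A match describes the letters in the window and is not a measured binding site.

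Total mRNA of liver-made coagulation and complement factors was higher in HB livers for 11 of the 38 genes and lower for 0 at an adjusted p under 0.05. They were F2, Fga, Fgg, F13b and Cpb2 of the 21 coagulation genes, and Mbl2, C8b, C9, Serping1, Cfi and C4bp of the 17 complement genes. Across all 12817 genes tested, 21.4% were called, 11.3% higher and 10.1% lower, and the members' share was 28.9% higher and 0% lower. The median log2 change, HB over HF, was 0.57 over the 38 members, 0.46 over coagulation, 0.64 over complement and 0.01 over all genes. Tests are edgeR's quasi-likelihood F test on the counts of the 4 mRNA libraries, with Benjamini-Hochberg adjustment over all genes. Levels below are RPKM (reads per kilobase of transcript, scaled to the size of the library) on library sizes scaled by TMM.

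Both HB libraries lay above both HF libraries for 25 of the 38 genes (65.8%), below them for 2, Klkb1 and C4b, and among them for 11. Over all genes the shares were 33.4% above and 31.6% below. By reads, the 21 coagulation genes took 1.87% and 1.66% of HB mRNA libraries and 1.29% and 1.41% of HF mRNA libraries, which do not overlap. Complement genes took 0.938% and 0.953% in HB and 0.931% and 0.977% in HF, and these ranges overlap. The plot of mRNA levels shows each gene in each library.

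**Figure D1:**
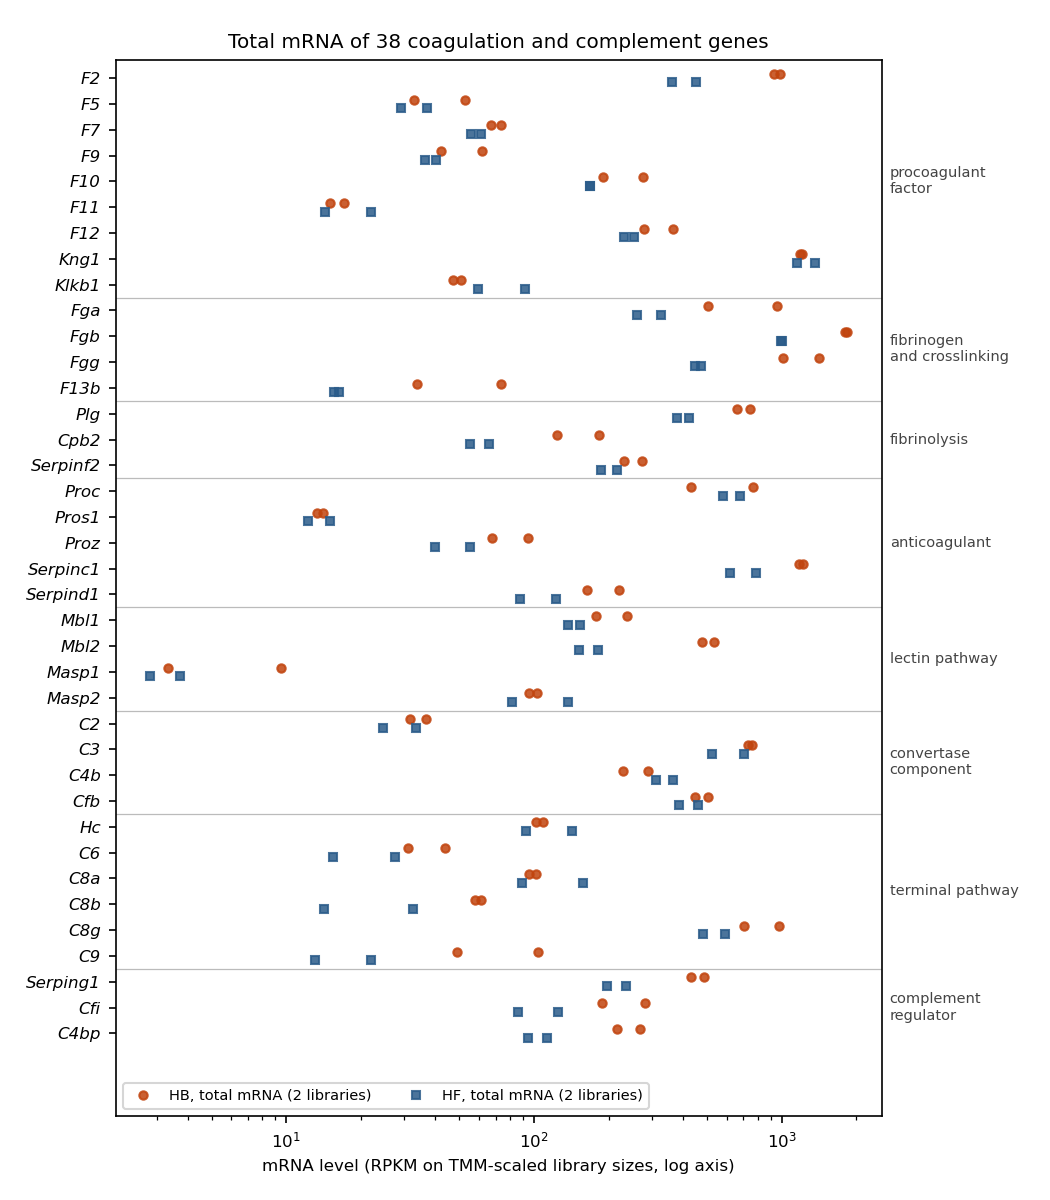
Total mRNA level (RPKM on TMM-scaled library sizes, log axis) of the 38 genes, grouped by role; circles are the 2 HB libraries and squares the 2 HF libraries. HB circles lie to the right of both HF squares for 25 genes, and Klkb1 and C4b have both HB circles to the left.

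**Figure D2:**
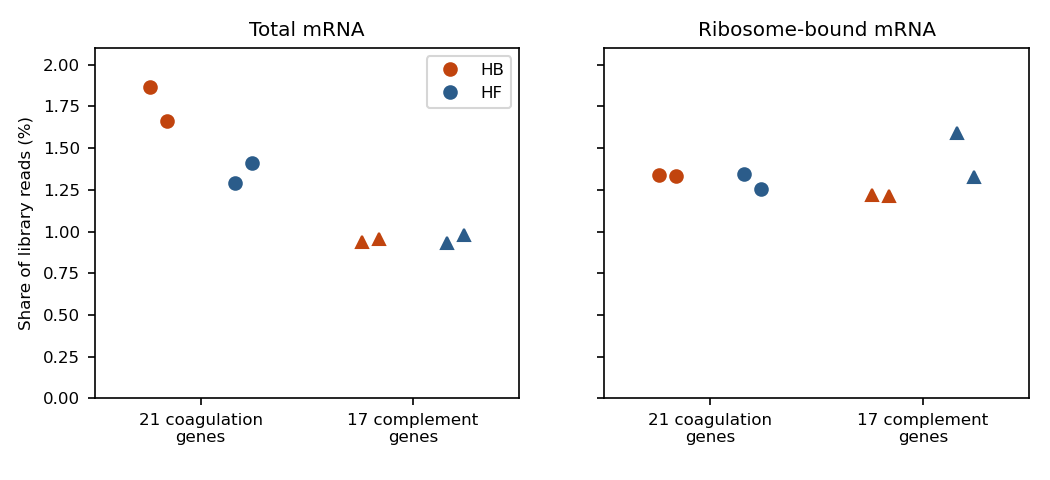
Share of all reads in a library (%, axis from 0) taken by the 21 coagulation genes (circles) and the 17 complement genes (triangles), 2 libraries per diet, with HB left of HF. In total mRNA the coagulation share was 1.87% and 1.66% in HB and 1.29% and 1.41% in HF, whereas in ribosome-bound mRNA it was 1.34% and 1.33% in HB and 1.34% and 1.26% in HF.

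Among the 9 procoagulant factors, F2 alone passed the test. F2, on chromosome 2 (chr2:91612397-91636457, GRCm38.p6), encodes prothrombin. Its mRNA was at 925 and 982 RPKM in HB livers and at 360 and 452 RPKM in HF livers. The groups were far apart, and the log2 change was 1.22 ± 0.29 (SE; 2.33-fold; adjusted p = 0.017, edgeR quasi-likelihood test). Kng1, which encodes the kininogens that carry bradykinin and has a close paralog in Kng2, was the most abundant procoagulant mRNA, at 1200.4 and 1181 RPKM in HB and 1150 and 1361 RPKM in HF, with HB inside the HF range (log2 change −0.09 ± 0.29). Klkb1, plasma prekallikrein, which cuts kininogen, was at 46.9 and 50.5 RPKM in HB and 59.5 and 92.0 RPKM in HF (log2 change −0.65 ± 0.31, edgeR adjusted p = 0.15). The vitamin K dependent proteases F7, F9 and F10 had both HB values above both HF values without passing, with log2 changes of 0.25, 0.42 and 0.46. F5, a cofactor of the enzyme that makes thrombin, F11 and F12 had log2 changes of 0.36, −0.19 and 0.39.

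The fibrin group moved most among the coagulation roles, with 3 of 4 genes higher. Fga, at chr3:83026153-83033627, encodes the alpha chain of fibrinogen and was at 959.9 and 504 RPKM in HB and 325 and 262 RPKM in HF (log2 change 1.30 ± 0.35, edgeR adjusted p = 0.025). Fgg, at chr3:83007724-83015056, encodes the gamma chain and was at 1416 and 1009.8 RPKM in HB and 473 and 447 RPKM in HF (log2 change 1.38 ± 0.30, edgeR adjusted p = 0.013). Fgb, at chr3:83042246-83049863, encodes the beta chain, which had the highest mean level of the 38 mRNAs over the 4 libraries, although Kng1 was above it in both HF libraries, and ranked 52 among 16762 genes detected. Its levels of 1835 and 1803 RPKM in HB and 998 and 992 RPKM in HF were each nearly equal within a diet, but the change missed the threshold (log2 change 0.86 ± 0.28, edgeR adjusted p = 0.052). F13b, at chr1:139501547-139523758, encodes the carrier subunit of factor XIII, the enzyme that crosslinks fibrin. It was at 73.7 and 33.8 RPKM in HB and 16.3 and 15.7 RPKM in HF, the largest change of the coagulation genes (log2 change 1.73 ± 0.36; 3.32-fold; edgeR adjusted p = 0.010). The HB libraries were farther from each other than the HF pair, and both stood above HF.

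Of the 3 fibrinolysis genes, Cpb2 rose. Cpb2, at chr14:75242287-75283555, encodes the carboxypeptidase that trims fibrin and slows its breakdown, and it was at 184 and 124 RPKM in HB and 55.4 and 65.6 RPKM in HF (log2 change 1.33 ± 0.31, edgeR adjusted p = 0.014). Plg, the precursor of plasmin, was the most abundant of the group, at 657 and 745 RPKM in HB and 377 and 424 RPKM in HF. The groups did not overlap, and the change did not pass (log2 change 0.79 ± 0.29, edgeR adjusted p = 0.070). Serpinf2, the plasmin inhibitor, had a log2 change of 0.31.

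None of the 5 anticoagulant genes passed edgeR's test, although 3 had an unadjusted p under 0.05, as did 4766 of all 12817 genes. DESeq2 called 2 of them, Serpinc1 and Serpind1, and 3021 of all genes. The 2 limma fits on log2 RPKM and limma voom called 0 of them and 2971, 2888 and 2790 of all genes. Serpinc1, antithrombin, was at 1178 and 1219 RPKM in HB and 619.5 and 786 RPKM in HF (log2 change 0.76 ± 0.29, edgeR adjusted p = 0.084). Serpind1, heparin cofactor II, was at 221 and 164 RPKM in HB and 88.0 and 123 RPKM in HF (log2 change 0.85 ± 0.31, edgeR adjusted p = 0.070). Proz, which helps inhibit factor X, had a log2 change of 0.76, and both its HB values also lay above HF. In Proc, which encodes protein C, and Pros1, its cofactor, the diets overlapped, with log2 changes of −0.08 and −0.01.

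In the lectin pathway of complement, Mbl2 rose and the other 3 genes did not pass. Mbl2, at chr19:30232906-30239687, encodes mannose-binding lectin C, which binds microbial sugars. It was at 475 and 531 RPKM in HB and 152 and 181 RPKM in HF, with a wide gap between the diets (log2 change 1.58 ± 0.29; 2.99-fold; edgeR adjusted p = 0.0078). Mbl1, its relative, was at 178 and 236 RPKM in HB and 138 and 154 RPKM in HF, with a log2 change of 0.50. The lectin-associated proteases Masp1 and Masp2 had log2 changes of 0.96 and −0.16, and in both the diets overlapped. Masp1 was the lowest of the 38 mRNAs, ranking 6985.

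The 4 genes for convertase components did not pass in either direction. edgeR, DESeq2, both limma fits and limma voom each called 0 of them, against 2740 to 3021 of all 12817 genes. edgeR gave 0 of the 4 an unadjusted p under 0.05, against 4766 of all genes. C3, the central component of all pathways, was at 732 and 755 RPKM in HB and 702 and 521 RPKM in HF (log2 change 0.27 ± 0.30). C4b was at 228 and 289 RPKM in HB and 312 and 365 RPKM in HF (log2 change −0.40 ± 0.30), and it shares nearly identical sequence with C4a, so its reads may be divided between the 2 genes. C2 and Cfb, the catalytic subunits, had log2 changes of 0.22 and 0.16.

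Of the 6 genes of the terminal pathway, C9 and C8b rose. C9, at chr15:6445346-6498825, was at 104 and 48.9 RPKM in HB and 13.04 and 21.9 RPKM in HF. Both HB libraries were above both HF libraries, although the HB pair itself was far apart, and the change was the largest of all 38 (log2 change 2.11 ± 0.39; 4.32-fold; edgeR adjusted p = 0.0077). C8b, at chr4:104766317-104804548, encodes the beta chain of C8 and was at 61.3 and 57.9 RPKM in HB and 14.2 and 32.6 RPKM in HF (log2 change 1.34 ± 0.36, edgeR adjusted p = 0.026). Its neighbour C8a, the alpha chain, was at 95.6 and 102 RPKM in HB and 89.4 and 157 RPKM in HF, with a log2 change of −0.34 ± 0.33. The gamma chain, C8g, was the most abundant terminal mRNA, at 705 and 974 RPKM in HB and 482 and 588 RPKM in HF, and did not pass (log2 change 0.64 ± 0.31, edgeR adjusted p = 0.15). Hc, which encodes C5, and C6 had log2 changes of −0.18 and 0.78.

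All 3 complement regulators rose. Serping1, the C1 inhibitor, which also restrains kallikrein and factor XII, lies at chr2:84765360-84775444 and was at 431 and 486 RPKM in HB and 198 and 235 RPKM in HF (log2 change 1.07 ± 0.29, edgeR adjusted p = 0.026). Cfi, the protease that inactivates C3b and C4b, lies at chr3:129836727-129875332 and was at 279.9 and 188 RPKM in HB and 86.5 and 125 RPKM in HF (log2 change 1.13 ± 0.33, edgeR adjusted p = 0.031). C4bp, its cofactor, lies at chr1:130635921-130661657 and was at 268 and 217 RPKM in HB and 94.6 and 113 RPKM in HF (log2 change 1.21 ± 0.29, edgeR adjusted p = 0.018). In these 3 genes no HB library reached down to an HF library.

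**Figure D3:**
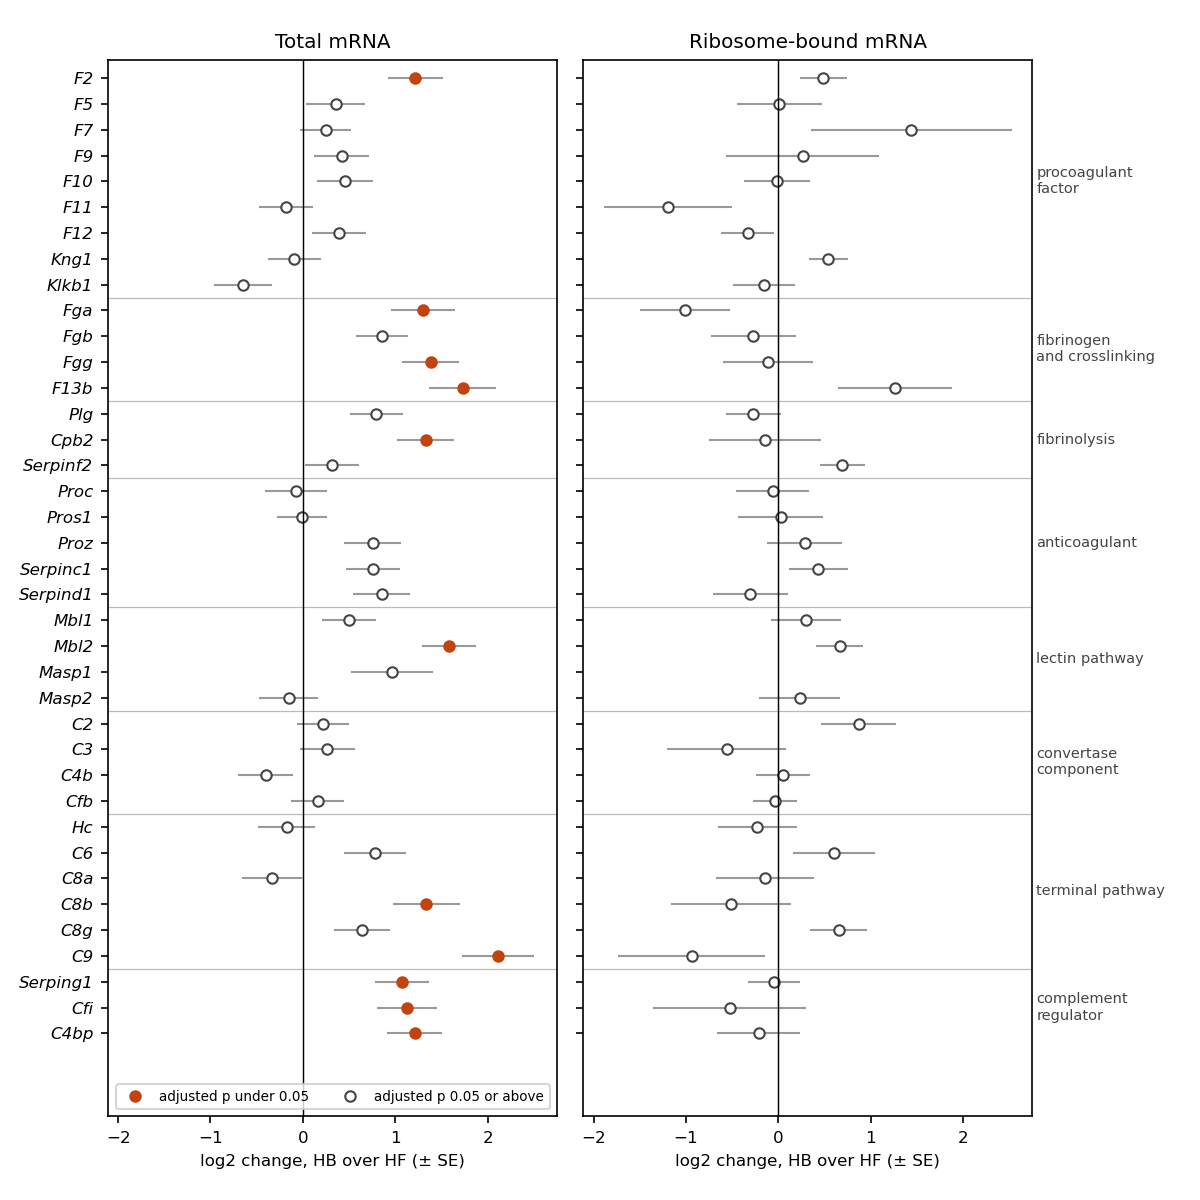
log2 change, HB over HF, with its SE for total mRNA (left) and ribosome-bound mRNA (right), genes grouped by role; filled points have an adjusted p under 0.05. In total mRNA 11 points are filled, all right of 0, and in ribosome-bound mRNA none is; Masp1 is not drawn there because 3 of its 4 libraries held no read.

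These mRNA calls depended on which libraries entered the fit. With 1 mRNA library left out, a diet keeps a single library, and calls of members and of all genes both changed in number. Sizes alone are therefore given for these fits. The members' median log2 change ranged from 0.50 to 0.62, against −0.02 to 0.01 over all genes. Without HB mRNA replicate 1, the log2 change fell to 0.79 in Fga and 0.84 in Cfi. Without HF mRNA replicate 1, it fell to 0.85 in C8b. Over the fits with 1 mRNA library left out, C9 ranged from 1.49 to 2.56 and F13b from 1.09 to 2.19. With all 7 libraries in 1 fit, 0 members and 0 genes overall passed, and the common dispersion was 0.481 there against 0.0644 in the 4 mRNA libraries. Scaling by library totals moved the median of all genes to −0.28 and left 7 members higher (C4bp, C9, Cpb2, F13b, F2, Fgg and Mbl2) and Klkb1 lower. Over all 12817 genes it called 3103, of which 783 were higher. Both limma fits also gave Klkb1 as lower. Of all genes called, 52.8% were higher under TMM and 25.2% under library totals, so that directions here are relative to the bulk of genes.

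Other genes of both pathways were counted from fixed lists. Of 22 other coagulation genes, 19 were tested, and edgeR called 3 higher and 0 lower at an adjusted p under 0.05, against 11.3% higher and 10.1% lower over all genes. They were Anxa5, an anticoagulant phospholipid-binding protein (log2 change 1.76), Serpina1a, an elastase inhibitor with near-identical copies among which reads cannot be told apart (1.59), and Vkorc1, which recycles vitamin K for the clotting factors (1.30). Of 33 other complement genes, 28 were tested, with 6 higher and 1 lower (21.4% and 3.57%), against the same 11.3% and 10.1% over all genes. The 4 largest were C1rb (2.16), which has a near-identical neighbour in C1ra, C1qc (1.45), Clu (1.43) and Cfd (1.32), and the lower gene was Cd59a, a membrane inhibitor of pore formation (−0.96).

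Ribosome-bound mRNA of the 38 genes did not pass in either direction between the diets. edgeR's quasi-likelihood test in the fit of 7 libraries called 0 members, against 10.6% of 13454 genes (7.02% higher and 3.63% lower). It gave an unadjusted p under 0.05 to 2 members (Mbl2 and Serpinf2) and to 2470 of all 13454 genes. DESeq2 called 1 member, Serpinf2, and 2897 of all genes. The 2 limma fits and limma voom called 0 members and 1534, 1115 and 827 of all genes. The median log2 change was −0.04 over members and 0.00 over all genes. With 3 residual degrees of freedom and the dispersion given above, a missed threshold here does not show that levels were equal. The HB library lay above both HF libraries for 12 members (31.6%), below both for 6 (15.8%) and between them for 20, against 30.4% above and 19.3% below over all genes.

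The genes whose total mRNA rose were spread on both sides of 0 in ribosome-bound mRNA. Ribosome-bound F2 was at 322 RPKM in HB and 209 and 249.9 RPKM in HF (log2 change 0.49 ± 0.26, edgeR adjusted p = 0.34). Ribosome-bound Mbl2 was at 107 RPKM in HB and 72.1 and 63.0 RPKM in HF (0.66 ± 0.25, edgeR adjusted p = 0.26). Ribosome-bound F13b was at 6.60 RPKM in HB and 3.60 and 1.89 RPKM in HF (1.27 ± 0.62, edgeR adjusted p = 0.30). In these 3 the HB value was the highest. Ribosome-bound Fga was at 61.9 RPKM in HB and 144 and 106 RPKM in HF (−1.01 ± 0.48, edgeR adjusted p = 0.29), and ribosome-bound C9 was at 8.64 RPKM in HB and 9.69 and 23.4 RPKM in HF (−0.94 ± 0.79). There the HB value was the lowest.

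The remaining genes with higher total mRNA had ribosome-bound HB values inside the HF range. Fgg was at 380 RPKM in HB and 551 and 269 RPKM in HF, and Cpb2 at 29.7 RPKM in HB and 46.7 and 19.0 RPKM in HF. C8b was at 17.2 RPKM in HB and 16.8 and 32.2 RPKM in HF, and Serping1 at 167 RPKM in HB and 150.2 and 195 RPKM in HF. Cfi was at 20.7 RPKM in HB and 12.5 and 47.2 RPKM in HF, and C4bp at 54.5 RPKM in HB and 82.6 and 43.6 RPKM in HF. The HF pair was loose: F7 differed 9.19-fold between its 2 libraries, and 9 members differed over 2-fold. Masp1 had 38 reads in 1 HF ribosome-bound library and 0 in the other 3, where 3 reads is the limit that a count of 0 allows, so no fold is given.

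**Figure D4:**
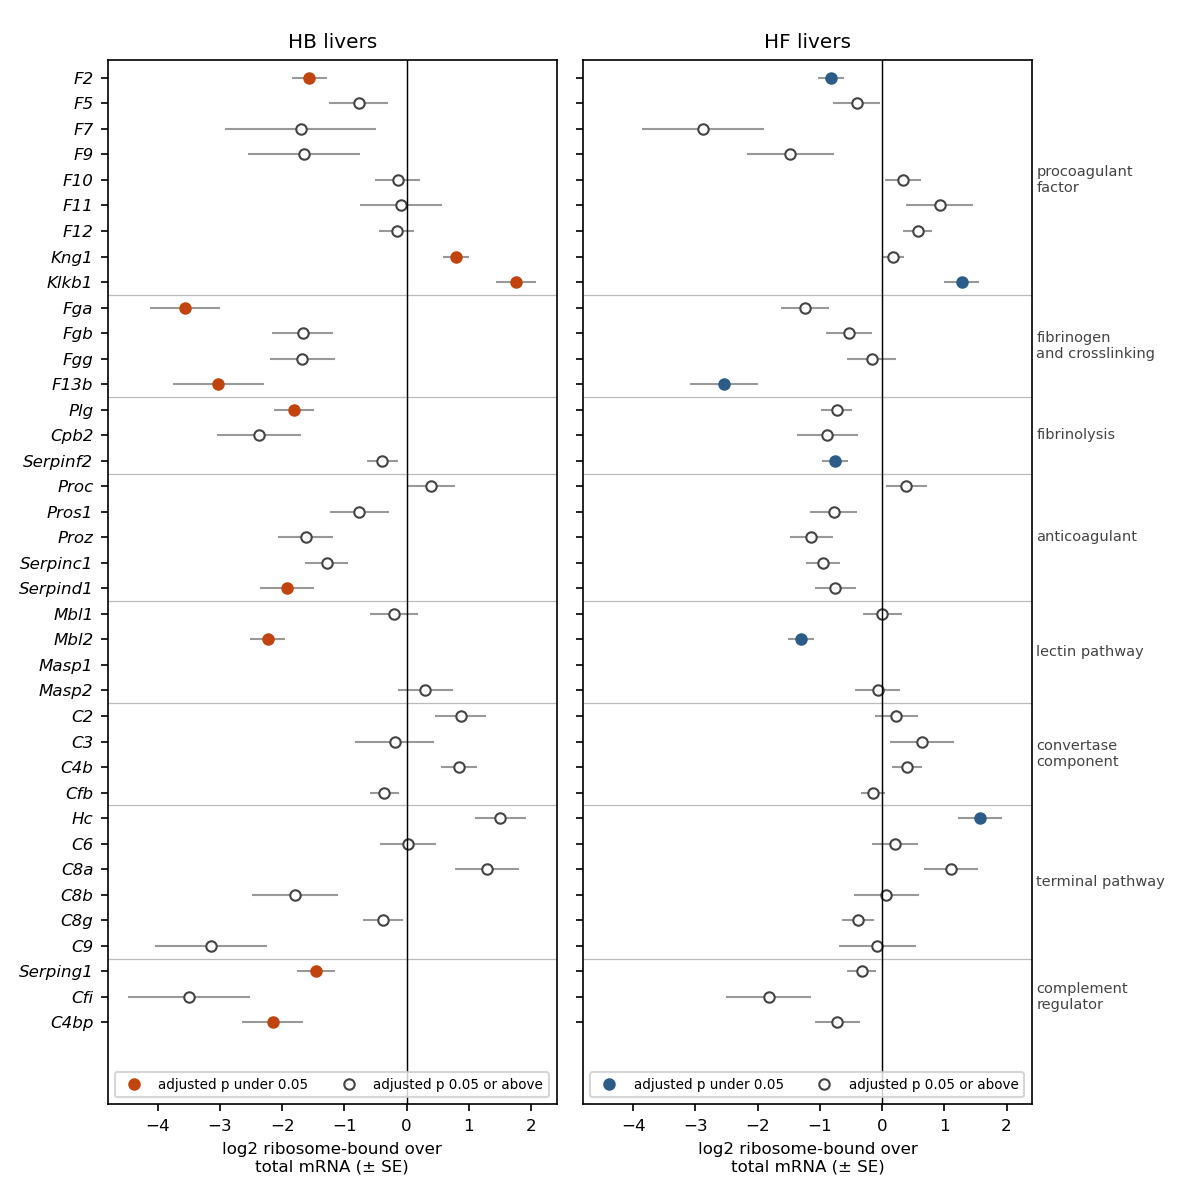
log2 ratio of ribosome-bound over total mRNA with its SE in HB livers (left) and HF livers (right), genes grouped by role; filled points have an adjusted p under 0.05. Klkb1 is filled right of 0 in both panels and F2, F13b and Mbl2 left of 0 in both; Masp1 is not drawn.

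The ratio of ribosome-bound over total mRNA, scaled within the same fit, describes how much of a gene's mRNA was found with ribosomes relative to other genes. In HB livers edgeR's test gave 10 of the 38 a ratio different from 1, 2 higher (Klkb1 and Kng1) and 8 lower (F2, Fga, F13b, Plg, Serpind1, Mbl2, Serping1 and C4bp), against 27.3% of all genes, 5.58% higher and 21.7% lower. In HF livers 6 passed, Klkb1 and Hc higher and F2, F13b, Serpinf2 and Mbl2 lower, against 29.0% of all genes, 3.67% higher and 25.4% lower. Median log2 ratios were −1.03 over members and −0.90 over all genes in HB, and −0.35 over members and −0.64 over all genes in HF. The test is against a log2 ratio of 0 and not against these medians. In HF, F2 (−0.82 ± 0.21) and Serpinf2 (−0.76 ± 0.20) lay within their SE of the median of all genes. Both members' shares, 26.3% in HB and 15.8% in HF, were no higher than those of all genes.

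Klkb1 had the highest ratio among the procoagulant factors in both diets. It had a log2 ratio of 1.76 ± 0.32 in HB (edgeR adjusted p = 0.024) and 1.28 ± 0.28 in HF (edgeR adjusted p = 0.026), and Kng1 of 0.80 ± 0.21 in HB (edgeR adjusted p = 0.048) and 0.18 ± 0.18 in HF. Hc had a log2 ratio of 1.51 ± 0.41 in HB (edgeR adjusted p = 0.052) and 1.57 ± 0.36 in HF (edgeR adjusted p = 0.030). Fga and F13b lay far below 0. The log2 ratio of Fga was −3.56 ± 0.56 in HB (edgeR adjusted p = 0.024) and −1.23 ± 0.38 in HF (edgeR adjusted p = 0.072), and that of F13b was −3.02 ± 0.74 in HB (edgeR adjusted p = 0.039) and −2.54 ± 0.55 in HF (edgeR adjusted p = 0.026). Mbl2 was below the bulk in both diets, at −2.23 ± 0.29 in HB (edgeR adjusted p = 0.022) and −1.30 ± 0.21 in HF (edgeR adjusted p = 0.015). Leaving out any single mRNA library left 0 members and 0 genes overall called in either diet, so none of these calls holds without all 4 mRNA libraries. Without HF ribosome-bound replicate 1 or 2, calls of members and of all genes both rose in number in each diet. Only mRNA replicates then measured the spread, and sizes alone are given. In HB the members' median log2 ratio was −1.03 each time, against −0.93 and −0.92 over all genes. In HF the members' median was −0.41 each time, against −0.96 and −1.21 over all genes.

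The change of that ratio with betaine was tested as an interaction, and no member passed. edgeR called 0 of 38, against 9.45% of all genes (5.78% higher and 3.67% lower). Of all 13454 genes, 2424 had an unadjusted p under 0.05 in edgeR's test. So did 5 members (Fga, Plg, Mbl2, C9 and Serping1), all negative. DESeq2 called 2233 of the 13454 genes, and among members the same 5, all lower. Both limma fits and limma voom called 0 members, and 1240, 649 and 637 of all genes. Of the 38, 27 were negative, and the median was −0.48 over members and 0.00 over all genes. Fga was nearest to the threshold, at −2.33 ± 0.62 (edgeR adjusted p = 0.11), and C9 was at −3.07 ± 1.05 (edgeR adjusted p = 0.21). This contrast contains the same mRNA libraries as the mRNA comparison, so the 2 are not independent. Without HF ribosome-bound replicate 1 or 2, the members' median was −0.45 each time, against 0.12 and 0.22 over all genes. The spread in these fits came from the mRNA libraries alone.

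The deposited m6A peaks, called in each library separately, overlapped 28 of the 38 genes between the RefSeq start and end in at least 1 library. Among 6892 genes at or above the mRNA level of the lowest member, 79.0% had such a peak, and among the 1463 genes at or above the members' lower quartile 49.4% had one. Each of the 4 libraries had a peak, at the same place in the gene or not, on 12 members (31.6%). This compares with 33.6% of those 6892 genes and 15.3% of the 1463. Member counts keep all 38 genes, also those below the quartile that cuts the 1463, so members and the 1463 are unlike sets. Folds of enrichment are the authors' values per peak and are all at least 6, no test was made on them, and the m6A input libraries were not analysed here. With no exon map of the build at hand, a peak inside a gene is not assigned to an exon, intron or UTR. F12, Fgb, Serpinf2, Proc, Masp2, C3, C4b, Cfb, C8g and Serping1 had no peak.

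Overlapping peaks were joined to 103 sites, of which 13 were present in all 4 libraries and 76 in a single one. Where a library had several peaks in a site, the fold given is the highest of them. The 13 lay on 10 genes, namely C6 with 3, F9 with 2, and F5, Kng1, Fga, Cpb2, Proz, Mbl1, Masp1 and C8a with 1 each. The site of Fga at chr3:83030743-83031989, with its median peak summit 69.0% of the way along the gene, had folds of 12.8 and 12.3 in HB and 22.5 and 34.2 in HF, so both HB values were lower. A site of C6 at chr15:4744134-4747101, which joins 3 and 2 peaks in HB and 2 and 1 in HF, went the other way, with highest folds of 38.8 and 29.7 in HB and 8.06 and 7.03 in HF. The site of Mbl1 at chr14:41158372-41159198 had folds of 14.6 and 18.7 in HB and 13.8 and 14.0 in HF. In C8a the shared site covered the annotated end of the gene, with folds of 6.22 and 8.27 in HB and 10.4 and 8.85 in HF.

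Peaks that separated the diets in both replicates were few. Counting a peak at any place in the gene, no member had one in both HB libraries and in neither HF library (0 of 38, against 2.13% of the 6892 genes). The reverse was seen in 3 (Serpinc1, Serpind1 and C4bp, against 3.50%), although the peaks of Serpinc1 lay at different places in the HF libraries. By site, 4 were in both HF libraries and neither HB library, on Proz, Serpind1, Hc and C4bp, and 0 were in both HB libraries alone. Sites were joined for members only, so these site counts have no share over all genes beside them. Peaks were assigned by gene span without strand, so a peak may belong to an overlapping gene. Proz overlaps Pcid2, Serpind1 overlaps Pi4ka, and Hc overlaps 2 noncoding genes. The sites on Proz, Hc and C4bp had their median peak summit within 282 bases of the annotated gene end. Their HF folds were 8.95 and 9.78 in Proz, 12.6 and 9.42 in Hc, and 6.39 and 7.14 in C4bp. The lists hold no peak under a fold of 6, so an absent peak in HB does not show absent methylation. With a minimum fold of 10, 17 members (44.7%) had a peak, against 59.6% of the 6892 genes and 28.2% of the 1463. At that minimum, 3 sites were in all 4 libraries, 1 site, on C6, was in the HB pair alone and 0 sites were in the HF pair alone.

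**Figure D5:**
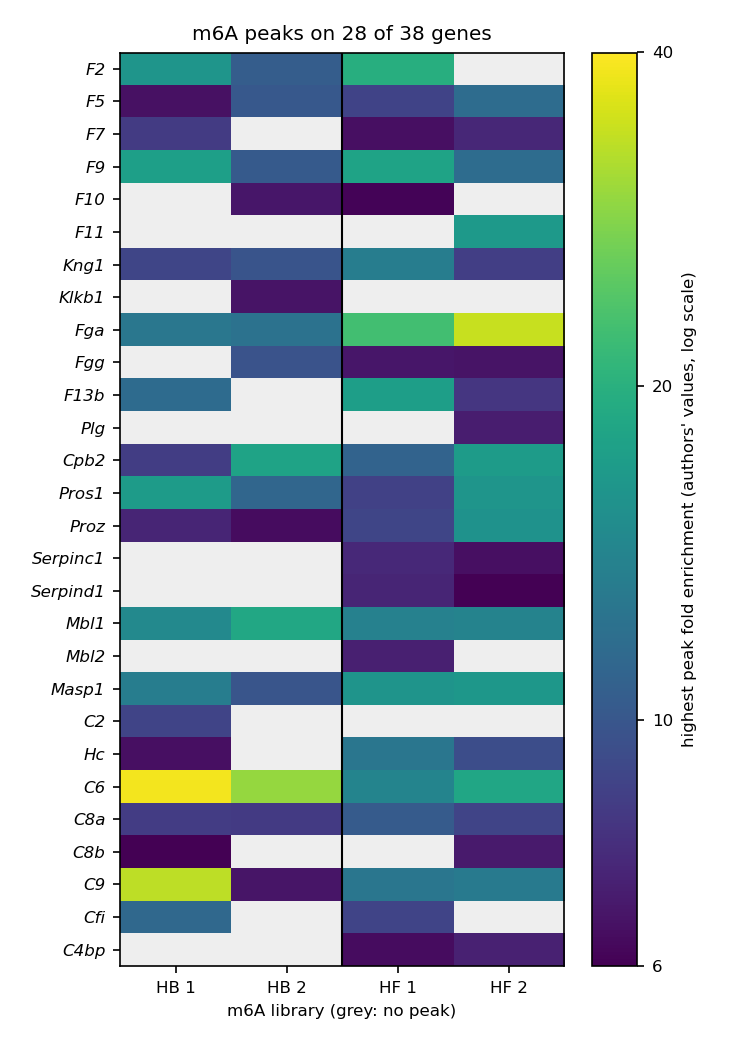
Highest m6A fold enrichment (the authors' values, log colour scale) on each of the 28 genes with a peak, in the 2 HB and the 2 HF libraries; grey marks a library with no peak on the gene. C6 is brightest in HB, at 38.8 and 29.7, and Fga in HF, at 22.5 and 34.2.

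Some members are neighbours in the genome. F7, F10 and Proz lie next to one another on chromosome 8 and had log2 mRNA changes of 0.25, 0.46 and 0.76, none of which passed. C8a and C8b, neighbours on chromosome 4, had −0.34 and 1.34. C4b, Cfb and C2 on chromosome 17 had −0.40, 0.16 and 0.22. The labels do not say that counting used strand, so reads of F2 and Ckap5, Proz and Pcid2, Serpind1 and Pi4ka, Masp1 and Rtp4, Masp2 and Tardbp, C8a and Fyb2, and C8g and Fbxw5, which overlap, may be shared. An m6A peak within such an overlap may likewise lie on the other gene.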

How the data were processed

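Members and lists were chosen with earlier results of these data known. Per the labels' protocols, the m6A libraries were processed with Trimmomatic 0.36 (trimming) and TopHat 2.0.13 (alignment). The submitters' processing notes name build mm10, the peak caller MACS2 2.1.0.20151222, HISAT2 2.0.4 and HTSeq 0.6.0 among others, with no step given. The deposited read counts are whole reads per gene with splice variants merged, not normalized by the authors. The deposited RPKM values are, per the file headers, counts divided by the longest transcript's length and the library's reads. The deposited peaks give, per the file headers, a fold enrichment (a ratio over local background), a pileup signal at the summit whose scaling is not stated, and the −log10 of a p-value and a q-value, of which only the fold was used.

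Counts were fitted with edgeR 4.0.16 in R 4.3.3 (TMM, filterByExpr, quasi-likelihood F test, Benjamini-Hochberg adjustment over all genes, threshold 0.05). HB against HF in mRNA used the 4 mRNA libraries, and the other contrasts used 7 libraries in 1 fit with 3 residual degrees of freedom. That fit assumes that the single summed HB ribosome-bound library varies like the other groups. Displayed RPKM were recomputed from counts, transcript length and the scaled library sizes of the fit of 7. DESeq2 1.42.0 and limma 3.58.1 were alternatives, and marker sums use the deposited RPKM. The code was tested on simulated data. Planned assignment of peaks by exon was replaced by RefSeq gene spans (GRCm38.p6) for want of an exon map. All members are accounted for. Values in every library are given for members that passed in a diet contrast and, in each role, for the one with the highest mean mRNA and the one with the largest change. A few more were named after their values were seen. Depth was 11437462 to 22492813 reads in mRNA and 5778439 to 8659310 in ribosome-bound libraries, so ribosome-bound libraries resolve low genes less well. No interval is given for the deposited peak folds, which carry no depth. With 2 libraries a diet, a permutation test could not go below p = 0.333.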

Additional observations from a re-analysis of the deposited data

How the results depend on the processing

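Counts of members with an adjusted p under 0.05 (edgeR unless another tool is named) moved beyond 1.5 times as follows. For HB against HF in mRNA (11), the fit of 7 libraries gave 0, and 0 over all 13454 genes. For ribosome-bound HB against HF (0), DESeq2 gave 1, the fit with a replicate block 1, and the fit of 8 libraries with the HB pair apart 2. Over all genes these gave 2897 of 13454, 2007 of 12634 and 2419 of 12634, against 1432 of 13454 with edgeR in the fit of 7. For the ratio in HB (10), DESeq2 gave 21, limma voom 5, the replicate block 21 and 8 libraries 22. Over all genes these gave 4692 and 3015 of 13454, then 4775 and 5428 of 12634, against 3676 of 13454 with edgeR in the fit of 7. For the ratio in HF (6), DESeq2 gave 14, limma voom 0 and 8 libraries 11. Over all genes these gave 4119 of 13454, 3027 of 13454 and 4396 of 12634, against 3908 of 13454 with edgeR in the fit of 7. For the interaction (0), DESeq2 gave 5, the replicate block 2 and 8 libraries 3. Over all genes these gave 2233 of 13454, 1711 of 12634 and 2053 of 12634, against 1272 of 13454 with edgeR in the fit of 7. With 1 library left out, the counts ranged from 4 to 14 in mRNA, 0 to 3 in ribosome-bound mRNA, 0 to 23 for the ratio in HB, 0 to 16 for the ratio in HF and 0 to 8 for the interaction. Each of these fits with 1 library left out has a group with a single library, and calls over all genes also rose or fell in them. The ranges therefore describe the fits and do not single out the members, and sizes from such fits are given above. Sites with an m6A peak in all libraries (13) numbered 3 at a minimum fold of 10 and 13 to 14 with 1 library left out. Leaving 1 out asks only for a peak in the remaining libraries, so that site count could hardly fall and does not measure stability. Members with a peak (28) numbered 17 at a minimum fold of 10 and 26 to 27 with 1 library left out. Among the 6892 genes at or above the lowest member's mRNA level, the share with a peak was 79.0%, and 59.6% at that fold. The cause of these moves was not tested. No called log2 change reversed under any alternative run. Sign changes of values called in neither fit occurred in 19 of 532 comparisons in mRNA and 40 of 722 in ribosome-bound mRNA. The labels do not pair the replicate numbers, and deviations of same-numbered mRNA libraries correlated at −0.11, so the block rests on a shared number only. In mRNA the block gave 12 members and 2936 of all 12817 genes. Assignment of peaks by exon was not run. Ribosome-bound depth limits low genes such as Masp1.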

Other observations

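Transcription factors and signalling genes known to act on hepatocyte genes were listed as 16 genes, and all were tested in total mRNA. edgeR called 1 higher and 2 lower at an adjusted p under 0.05, against 21.4% of all genes in either direction, with a median log2 change of −0.25 over the 16. Onecut1, a hepatocyte transcription factor, was at 29.9 and 8.70 RPKM in HB and 1.12 and 0.47 RPKM in HF (log2 change 4.58 ± 0.62, edgeR adjusted p = 0.0040). Nr1h4, the bile acid receptor FXR, was at 55.7 and 79.0 RPKM in HB and 221 and 178 RPKM in HF (log2 change −1.58 ± 0.32, edgeR adjusted p = 0.0091). Prox1, a hepatocyte corepressor, was at 3.16 and 5.49 RPKM in HB and 11.3 and 12.8 RPKM in HF (log2 change −1.49 ± 0.33, edgeR adjusted p = 0.012). In all 3 the diets did not overlap. Hnf4a had a log2 change of −0.32, Cebpa of 0.54, Cebpb of −0.63 and Stat3 of −0.34, none of which passed.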
